A study of Rattus norvegicus with 70 samples.

Results

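The genes described here drive and mark cell division: the G1 cyclins, the replication licensing and fork factors, the enzymes that supply deoxynucleotides, and the kinases, checkpoint proteins, motors and chromosome proteins of mitosis. They were taken from a fixed list of 40 gene symbols, and a gene entered when its symbol named a row of the deposited count table. Of the 40 symbols, 39 matched a row among 17048 gene rows, and Cenpe did not. The rule itself uses no measured value, but the list was drawn up with earlier results of these data known.

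Messenger RNA 3′ ends were counted in 5 organs (testis, ovary, liver, kidney and thyroid) of 63-day-old Sprague-Dawley rats, which are outbred, of both sexes. Their dams were dosed orally, beginning on gestational day 6 and ending on day 6 of lactation, with vehicle, with bisphenol A (BPA) at 500 mg/kg/day, or with a mixture (Mix) of 160 mg/kg/day BPA, 160 mg/kg/day bisphenol F (BPF) and 180 mg/kg/day bisphenol S (BPS). Litters were reduced on postnatal day 4 to 3 pups of each sex per dam, and the pups then received 250 mg/kg/day of the same substance from postnatal day 7 until day 63. Each organ, sex and treatment had 3 libraries, but only 2 vehicle and 2 BPA libraries came from female kidney, which gives 70 in all. The bisphenols differ in the bridge between their phenol rings, an isopropylidene group in BPA, a methylene group in BPF and a sulfonyl group in BPS. Because the mixture also contains BPA, Mix against BPA does not compare single compounds. The labels do not give the dam of each pup, so rats of a group may be littermates, and they do not give the stage of the estrous cycle in females. P-values therefore measure the spread between these rats. The same vehicle libraries served both treatment comparisons of an organ, so the BPA and Mix comparisons are not independent of each other.

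Cyclin D and cyclin E bring cells through G1, and CDK inhibitors such as the products of Cdkn2a oppose them. Cdc6 and Cdt1 then load the Mcm2 to Mcm7 helicase at replication origins, the clamp Pcna holds polymerases on DNA, and ribonucleotide reductase (Rrm1, Rrm2) and thymidylate synthase (Tyms) supply nucleotides. In G2 and mitosis Foxm1 and the MuvB complexes switch on cyclins A and B, Cdk1, Plk1 and the Aurora kinases, and the spindle checkpoint (Bub1, Bub1b, Mad2l1) holds back Cdc20 until chromosomes are attached. In the adult testis these genes are used by dividing spermatogonia and by spermatocytes in meiosis, in the ovary by granulosa cells of growing follicles, and in adult liver, kidney and thyroid few cells divide.

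Promoter sequences of 6 genes are shown because treatment comparisons below turn on them: Mki67, Top2a and Cenpf in the testis, and Mcm6, Tyms and Cdkn2a in the ovary. The 200 bases before the annotated start come from RefSeq on build GRCr8, which is not the rn6 build named for the counts. All 6 lie on the minus strand and are written 5′ to 3′ along the gene. Capitals mark 3 kinds of motif: TTTGAA, the core of the cell cycle genes homology region (CHR) bound by MuvB complexes; CCAAT, the NF-Y box; and the E2F-type octamers TTTCGCGC, TTTGGCGC, TTTCCCGC and TTTGCCGC. Both strands were searched.
Mki67, chr1:199952594-199952793: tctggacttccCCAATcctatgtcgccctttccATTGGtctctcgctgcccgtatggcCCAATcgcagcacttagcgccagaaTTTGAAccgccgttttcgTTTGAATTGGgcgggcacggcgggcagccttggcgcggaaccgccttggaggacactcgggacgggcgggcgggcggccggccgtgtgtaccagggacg
Top2a, chr10:84473094-84473293: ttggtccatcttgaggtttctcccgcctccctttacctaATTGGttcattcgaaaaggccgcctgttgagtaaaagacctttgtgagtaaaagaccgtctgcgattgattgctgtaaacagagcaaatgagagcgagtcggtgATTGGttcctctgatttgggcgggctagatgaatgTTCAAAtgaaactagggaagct
Cenpf, chr13:103760887-103761086: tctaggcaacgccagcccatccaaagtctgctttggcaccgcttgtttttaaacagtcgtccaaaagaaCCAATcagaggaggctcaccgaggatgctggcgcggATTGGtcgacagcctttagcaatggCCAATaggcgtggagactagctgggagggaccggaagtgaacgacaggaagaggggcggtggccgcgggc
Mcm6, chr13:42404353-42404552: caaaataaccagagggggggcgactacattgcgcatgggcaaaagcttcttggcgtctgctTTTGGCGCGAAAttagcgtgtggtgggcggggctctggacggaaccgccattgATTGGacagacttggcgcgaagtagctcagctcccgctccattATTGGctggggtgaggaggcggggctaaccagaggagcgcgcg
Tyms, chr9:120776084-120776283: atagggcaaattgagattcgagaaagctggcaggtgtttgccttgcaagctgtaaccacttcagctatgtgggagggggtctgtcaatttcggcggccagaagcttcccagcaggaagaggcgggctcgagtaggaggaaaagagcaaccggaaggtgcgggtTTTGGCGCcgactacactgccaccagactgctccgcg
Cdkn2a, chr5:109107957-109108156: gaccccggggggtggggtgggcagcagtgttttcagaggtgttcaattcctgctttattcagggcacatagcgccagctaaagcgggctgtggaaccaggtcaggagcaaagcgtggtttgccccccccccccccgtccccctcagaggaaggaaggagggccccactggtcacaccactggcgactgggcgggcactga

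The promoter of Mki67, which encodes the proliferation antigen Ki-67, held 2 CHR cores and 4 CCAAT boxes. That of Top2a, the topoisomerase that untangles sister chromatids, held 1 CHR core and 2 CCAAT boxes, and that of Cenpf, a kinetochore protein, held 3 CCAAT boxes. The Mcm6 promoter held 2 CCAAT boxes and 2 overlapping E2F-type octamers, the Tyms promoter held 1 E2F-type octamer, and none of the 3 motifs was found in the window of Cdkn2a. That window precedes 1 annotated start, and any other start of the locus was not searched. Of the 40 listed symbols, 30 had a promoter entry, and 250 bases before the start were searched. CCAAT occurred in 21 of these 30 (70.0%), against 34% of all 33469 promoters searched in the same way. It occurred in 9 of 9 promoters of the kinetochore and spindle genes. These 9 include Cenpe, which matched no count row, and lack Tpx2, which had no promoter entry. CHR cores occurred in 9 of 30 (30.0%) against 16.2% of all promoters, and E2F-type octamers in 6 of 30 (20%) against 1.73%. The E2F-type matches were in 4 of 7 licensing promoters and in 0 of 9 kinetochore and spindle promoters. These are letter matches and not measured binding.

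Total counts per library lay between 4803807 and 10929957, and ribosomal RNA rows took 0.657% to 37.1% of them. The labelled organs carried their defining transcripts: plain CPM (each count scaled to its library total) of Alb, the main hepatocyte secretory protein, were 47169 to 116749 in liver, Tg 25932 to 104841 in thyroid, Umod 893 to 2507 in kidney, Tnp1 33516 to 54503 in testis and Zp3 8.19 to 22.3 in ovary. The Y-linked gene Eif2s3y separated males (8.75 to 47.1 CPM) from females (at most 2.42). Several libraries outside the testis contained the spermatid transcript Tnp1. It reached 24.0% of the mean testis level in 1 male thyroid library (BPA replicate 1) and 6.29% and 3.57% in vehicle replicates 1 and 2 of female thyroid, 1 of which also had 2804 CPM of Alb. The testis is also the organ with the highest mitotic gene counts, so the treatment comparisons in thyroid and the vehicle ovary comparison are given with and without these libraries.

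All further levels are CPM scaled by TMM within an organ and sex. The kit makes 1 tag per transcript, so CPM is not divided by gene length. Under vehicle most members were more abundant in the gonads than in the other organs (plot of mean vehicle levels). Summed over the 39 genes, vehicle testis libraries had 3127, 2903 and 2906 CPM and vehicle ovary libraries 1279, 1248 and 1219 CPM. Male thyroid had 788, 956 and 736 CPM and female thyroid had 718, 574 and 507 CPM. Male kidney had 599, 603 and 648 CPM and female kidney had 432 and 440 CPM. Male liver had 300.4, 238 and 309 CPM and female liver had 189, 228 and 237 CPM. Mean vehicle levels were under 1 CPM for 1 member in testis, 0 in ovary, 11 in male liver, 21 in female liver, 5 and 10 in male and female kidney, and 2 and 6 in male and female thyroid. The bulk libraries cannot tell fewer dividing cells from less RNA per cell.

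**Figure D1:**
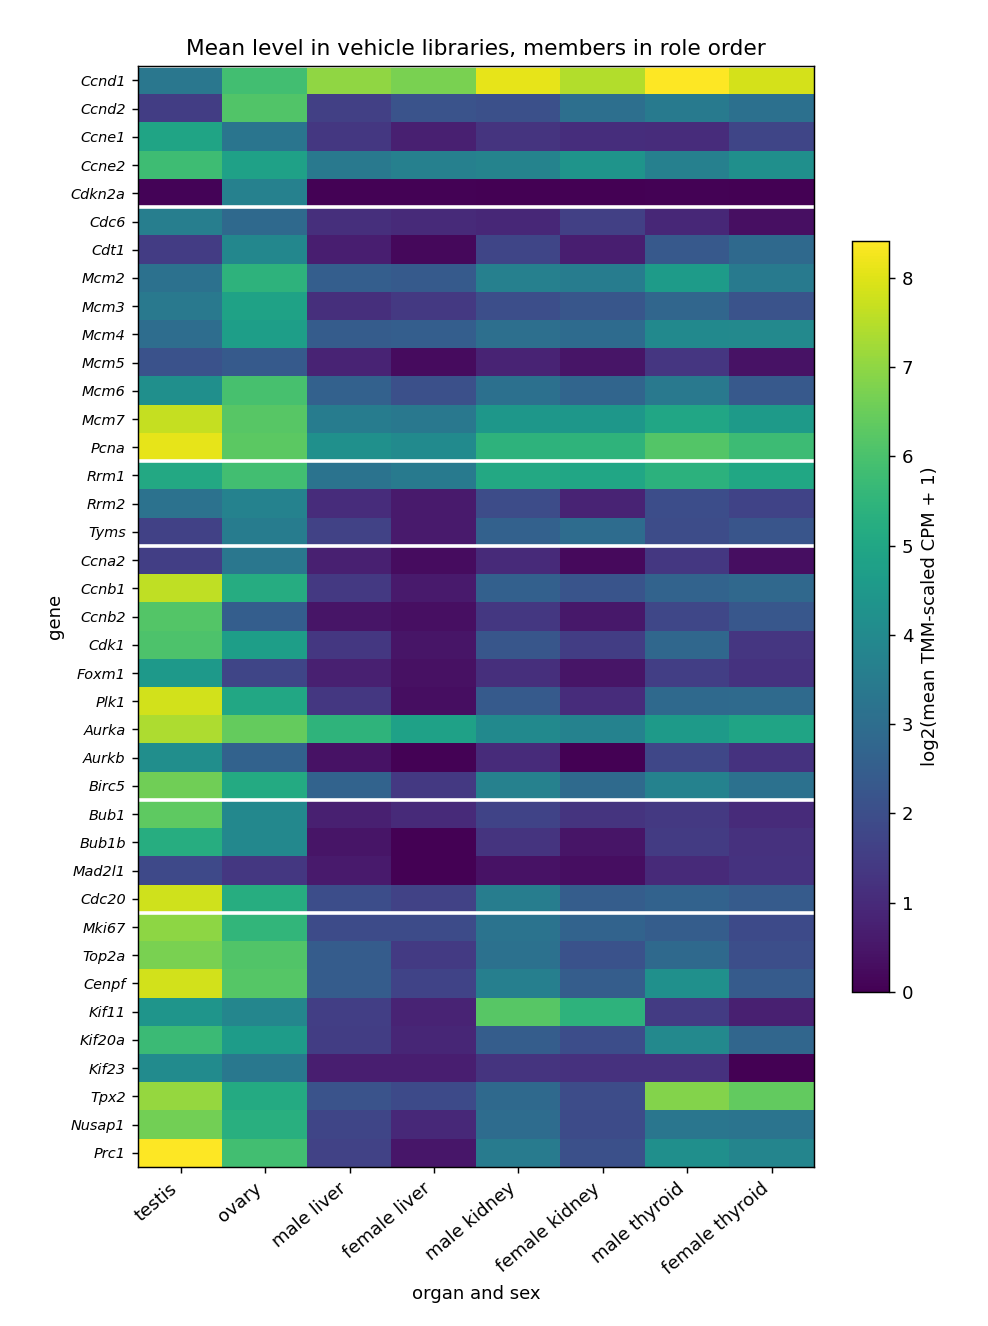
Mean vehicle level of the 39 genes, as log2 of CPM plus 1, with genes in rows ordered by role and the 8 combinations of organ and sex in columns. Brighter cells are higher: testis and ovary are bright across most mitotic genes, while liver, kidney and thyroid are brightest at Ccnd1.

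In a joint fit of the vehicle libraries of each sex with the rat as a block, 31 of the 38 members tested were higher in testis than in the mean of liver, kidney and thyroid and 3 were lower (adjusted p below 0.05, edgeR quasi-likelihood test). Over all 12645 rows of that fit, 41% were called higher and 39.3% lower. The median member differed by 3.31 on the log2 scale, beside -0.07 for all rows. All 9 kinetochore and spindle genes and all 4 checkpoint genes were among those called higher, and so were 8 of 9 mitotic entry genes and 6 of 9 licensing genes. The largest differences were those of Plk1, the polo-like kinase that drives mitotic entry (5.93, SE 0.18), the checkpoint kinase Bub1 (5.88, SE 0.27) and cyclin B2 (Ccnb2, 5.87, SE 0.31). Plk1 was at 236, 216 and 223 CPM in the vehicle testis libraries and at 0.813, 2.36 and 1.56 CPM in male liver, so the testis libraries lay far above. The 3 genes called lower in testis were Ccnd1 (-4.71, adjusted p = 1.9e-08), Ccnd2 (-1.11, adjusted p = 0.00639) and Mcm2 (-0.55, adjusted p = 0.038). The Mcm2 call held in 3 of 12 fits that left out 1 library (adjusted p up to 0.225) and neither with RLE scaling nor in DESeq2.

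In the ovary 28 of 39 members were higher and 1 lower, where 12.8% and 11% of 12418 rows were called in those directions; the median member difference was 3.11 beside 0.13 for all rows. Cdkn2a had the largest fitted difference (8.22), which rests on 1 count in the vehicle libraries of the other organs. Bub1b, a checkpoint kinase, and Ccna2, cyclin A2, followed it (5.84, SE 1.31, and 5.79, SE 1.20). These 2 sizes also rest on few counts: 0 to 16 for Bub1b and 0 to 6 for Ccna2 per vehicle library of the other organs. The count of calls moved with single libraries: the 29 calls became 12 without ovary vehicle replicate 2 or replicate 3 (12.1% and 12.9% of rows called). Bub1b was not called without any 1 of the 3 ovary libraries (adjusted p up to 0.198), nor Ccna2 without ovary replicate 2 or 3 (up to 0.141). Without female thyroid replicate 1, replicate 2 or both, which carried Tnp1, 30, 27 and 32 members were called (25.2%, 21.7% and 32.4% of rows), the last fit chosen after seeing the data. Ccnd1 was the gene called lower in ovary (-1.92, adjusted p = 0.00041). Cyclin D1 was thus called lower in both gonads: it was at 339 ± 61.3 CPM (SD, n = 3) in male thyroid, 272 ± 24.9 in male kidney, 127.2 ± 44.8 in male liver, 57.8 ± 4.26 in ovary and 9.04 ± 0.722 in testis. These levels are scaled within each organ. The male thyroid and kidney libraries overlapped, and the male liver, ovary and testis libraries each formed a lower step without overlap. Female vehicle libraries were at 288, 198 and 212 CPM in thyroid, 156 and 192 in kidney and 71.9, 109 and 132 in liver. In females thyroid, kidney, liver and ovary did not overlap.

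Cdkn2a, the locus that encodes the CDK inhibitor p16-INK4a and the p53 activator ARF, was at 15.5, 9.02 and 11.3 CPM in vehicle ovary. In every library of the other organs, treated ones included, it was at or below 0.619 CPM. Both transcripts share their 3′ exons, so a 3′ count does not tell them apart. Contrasts of each somatic organ with the other 2 were chosen after the data were seen. They called 4, 4 and 11 of 38 members higher in male liver, kidney and thyroid, where 24.6%, 26.3% and 28.5% of rows were. In females 1, 1 and 5 of 39 members were called higher, where 16.1%, 11.7% and 18.5% of rows were. The 3 mitotic genes named here were each called in the same organ in both sexes, and other members called are not named. The spindle motor Kif11 was at 78.9, 68.2 and 74.4 CPM in male vehicle kidney and at no more than 3.50 CPM in male vehicle liver and thyroid (log2 difference 4.94, adjusted p = 1.03e-07). Tpx2, a spindle assembly factor, was higher in male thyroid (117, 134 and 88.8 CPM, difference 3.93, adjusted p = 1.61e-08). Aurka, Aurora kinase A, was higher in male liver (38.0, 41.5 and 50.7 CPM, difference 2.35, adjusted p = 2.91e-07). In females the same 3 contrasts gave 5.99, 4.16 and 1.52 and were also called; the female vehicle thyroid libraries were at 86.1, 97.9 and 65.7 CPM of Tpx2, the last of them almost without Tnp1. Whether these counts come from the named gene or from an overlapping transcript was not tested.

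In the testis no member passed the threshold against vehicle under either treatment, and 3 passed between the treated groups. Mki67, Top2a and Cenpf, which mark and serve dividing chromosomes, were 1.89-fold to 2.14-fold higher in Mix than in BPA libraries. Vehicle libraries lay between the treated groups or within the Mix range. These 3 calls came from 38 members tested, in a comparison in which 0.775% of 11098 rows were called, 0.739% higher and 0.036% lower. An unadjusted p below 0.05 was found for 9 members, where 17.2% of all rows had one. Libraries did not overlap and were higher in Mix for 4 members and lower for 5, where 9.69% and 7.97% of all rows were.

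Mki67 was at 127.1, 128.2 and 121 CPM in the vehicle libraries, 77.6, 67.7 and 91.1 in the BPA libraries and 117, 171 and 218 in the Mix libraries. All 3 BPA libraries were below every other library, and the Mix libraries were spread widely, from just under vehicle to well above it. The Mix minus BPA difference was 1.10 on the log2 scale (SE 0.19, 95% interval 0.70 to 1.501, adjusted p = 0.0277 by edgeR's quasi-likelihood test). Top2a was at 101, 113.1 and 98.4 CPM in the vehicle libraries, 88.5, 67.7 and 68.8 in the BPA libraries and 104, 155 and 170.2 in the Mix libraries, again with no overlap between BPA and the other groups. Its difference was 0.93 (SE 0.17, 95% interval 0.56 to 1.30, adjusted p = 0.0317). Cenpf was at 243, 215 and 223 CPM in the vehicle libraries, 129, 137 and 116 in the BPA libraries and 158, 262 and 301 in the Mix libraries; the lowest Mix library was below vehicle but above all BPA libraries. Its difference was 0.92 (SE 0.18, 95% interval 0.53 to 1.32, adjusted p = 0.0411).

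These calls depended on single libraries. All 3 held without Mix replicate 1 (3.81% of rows called), and Tpx2 was called as well without BPA replicate 1 (8.81%). Without vehicle replicate 1 the call of Mki67 held alone, and none held without vehicle replicate 2 or 3, BPA replicate 2 or 3, or Mix replicate 2 or 3. Over these fits the adjusted p ranged from 0.00157 to 0.149 for Mki67, 0.00201 to 0.2 for Top2a and 0.00143 to 0.24 for Cenpf, and the differences stayed positive (0.87 to 1.30, 0.79 to 1.11 and 0.73 to 1.147). With the replicate number as a block no member passed. DESeq2 called the same 3 genes.

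**Figure D2:**
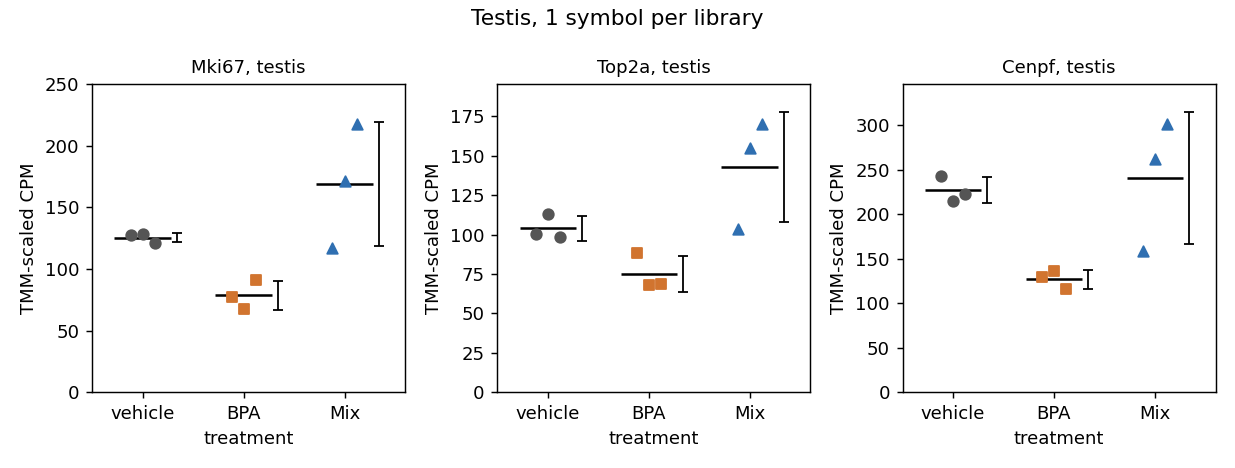
CPM of Mki67, Top2a and Cenpf in the 9 testis libraries, with 1 symbol per library, a line at the group mean and a bar of 1 SD (n = 3). The BPA libraries lie below the vehicle libraries for all 3 genes, and the Mix libraries are the most spread.

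Against vehicle, BPA libraries were apart and lower for the same 3 genes without passing the test. The mean of Cenpf was 227 ± 14.5 CPM in vehicle and 127.03 ± 10.6 in BPA (SD, n = 3; log2 difference -0.84, 95% interval -1.23 to -0.44, adjusted p = 0.225). Mki67 gave -0.67 (adjusted p = 0.257) and Top2a -0.47 (adjusted p = 0.324). By edgeR 0 of 38 members were called and 4 had an unadjusted p below 0.05 (12% of all rows did); DESeq2 called 2, Cenpf and Mki67. Cenpf was also called by edgeR without BPA replicate 1 and without Mix replicate 1. Libraries did not overlap and were lower in BPA for 6 members and higher for 1, where 9.9% and 8.46% of all rows were. The percentage of rows called in the main fit was 0%.

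By role, the kinetochore and spindle genes had the most uniform signs in this comparison: 9 of 9 were lower under BPA by value (median -0.24, beside a median near 0 for all rows), and 9 of 9 higher in Mix than in BPA (median 0.31). Over the alternative fits these medians stayed between -0.34 and -0.17 and between 0.26 and 0.45. The second count was 8 of 9 without BPA replicate 2 or without Mix replicate 3. Both counts share the BPA libraries and are not independent, and the 9 genes include Mki67, Top2a and Cenpf. The licensing, deoxynucleotide, mitotic entry and checkpoint genes gave medians between -0.13 and -0.05 for BPA against vehicle. Outside the 39 genes, 26 of 37 other mitotic genes were higher by value in Mix than in BPA (median 0.20) and 2 passed: the spindle motor Kif15 (13.3, 12.5 and 14.4 CPM in BPA and 18.9, 26.6 and 28.3 in Mix, adjusted p = 0.0446) and the condensin subunit Smc4 (748, 644 and 770.1 and 937, 1107 and 1296 CPM, adjusted p = 0.0438). Other replication genes did not share this sign, with 9 of 28 higher and a median of -0.12.

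Mix against vehicle gave 0 calls by edgeR and by DESeq2 among 38 members, with 3 at an unadjusted p below 0.05 where 5.33% of all rows were. The percentage of rows called was 0%. No member was higher and 3 were lower in Mix without overlap, where 6.25% and 5.98% of rows were. The smallest p-values belonged to Cdc20, which activates the anaphase-promoting complex, Top2a and Mki67. Cdc20 was at 259.6, 229 and 184 CPM in the vehicle libraries, 219, 229 and 231 in the BPA libraries and 199, 146 and 168 in the Mix libraries, with 1 vehicle library inside the Mix range (difference -0.39, adjusted p = 0.799). Top2a gave 0.46 (95% interval 0.09 to 0.83, adjusted p = 0.834) and Mki67 0.43 (95% interval 0.03 to 0.82, adjusted p = 0.934), both with overlapping libraries.

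Prc1 and Pcna, the members with the highest vehicle means, did not pass in any testis comparison; Cenpf, the third, is described above. Prc1, which bundles the spindle midzone, was at 332, 338 and 340.1 CPM in the vehicle libraries, 320.2, 279 and 282 in the BPA libraries and 319, 378 and 381 in the Mix libraries, so BPA lay below vehicle without overlap and the Mix range overlapped both. Pcna was at 292, 244 and 282 CPM in the vehicle libraries, 265, 304 and 315 in the BPA libraries and 283, 216 and 244 in the Mix libraries, with overlapping groups. Ccnd1 stayed between 6.58 and 12.2 CPM in all 9 libraries, and Cdkn2a was at or below 0.28 CPM. Summed over members the means were 2979 ± 129 CPM in vehicle, 2768 ± 48.3 in BPA and 3056 ± 238 in Mix (SD, n = 3).

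Spermatid transcripts varied between the same libraries. Tnp1, the transition protein of condensing spermatids, was at 43309, 40519 and 40262 CPM in the vehicle libraries, 39001, 50448 and 58269 in the BPA libraries and 53814, 33273 and 35136 in the Mix libraries. The Mix library with the most Tnp1, replicate 1, was also the Mix library with the least Mki67, Top2a and Cenpf. The BPA library with the most Tnp1 had the most Mki67 and the least Cenpf of its group. The vehicle library with the most Tnp1 had the most Cenpf of its group. Summed spermatid markers ranged from 57755 to 60246 CPM in vehicle, 58183 to 77193 in BPA and 52409 to 74602 in Mix. Spermatogonial markers (7 genes, led by Uchl1 and Dazl) summed to 248 to 295, 299 to 349 and 230.2 to 308 CPM in the same order, and meiotic markers (10 genes, led by Ldhc and Sycp3) to 4582 to 4743, 4624 to 4776 and 4548 to 4902 CPM. No marker of spermatogonia, spermatocytes, spermatids or Sertoli cells passed in any testis comparison. The part of germ cell composition in the Mki67, Top2a and Cenpf differences was not tested.

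In the ovary, against vehicle, 1 member fell under BPA, Cdkn2a, and 3 fell under Mix, the helicase subunit Mcm6, thymidylate synthase Tyms and cyclin D2 (Ccnd2). No member rose. Many rows changed in the ovary: 6.79% of 10871 under BPA (2.91% higher, 3.88% lower) and 9.12% under Mix (4.13% higher, 4.99% lower), so 1 and 3 calls among 39 members are near or below that background. Libraries did not overlap for 5 members higher and 4 lower under BPA (13.6% and 14.4% of rows) and for 1 higher and 7 lower under Mix (14.7% and 14.4% of rows).

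Cdkn2a was at 15.5, 9.02 and 11.3 CPM in the vehicle libraries, 1.49, 2.25 and 1.98 in the BPA libraries and 6.10, 3.30 and 7.18 in the Mix libraries. Every BPA library was below every other library, and the Mix libraries lay between. The mean fell from 11.9 ± 3.31 CPM to 1.91 ± 0.386 under BPA (SD, n = 3), a log2 difference of -2.65 (SE 0.43, 95% interval -3.58 to -1.72, adjusted p = 0.00491). It was called in 13 of 13 alternative fits, with adjusted p from 1.27e-06 to 0.0276. The Mix minus BPA difference was 1.54 (95% interval 0.61 to 2.46, adjusted p = 0.152) and passed in DESeq2.

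After Cdkn2a, the smallest p-values under BPA belonged to cyclin D1 and Cenpf. Ccnd1 was at 57.0, 53.9 and 62.3 CPM in the vehicle libraries, 90.8, 105 and 60.2 in the BPA libraries and 81.7, 95.2 and 83.5 in the Mix libraries. BPA replicate 3 was inside the vehicle range and the other BPA libraries were above it (difference 0.56, adjusted p = 0.0897); without that library Ccnd1 passed as well. All Mix libraries exceeded vehicle for Ccnd1 (0.59, adjusted p = 0.0657), and the call was made by DESeq2. Cenpf was at 66.5, 62.0 and 88.9 CPM in the vehicle libraries, 92.4, 115 and 109.7 in the BPA libraries and 76.3, 123 and 78.1 in the Mix libraries, with BPA above vehicle without overlap (0.54, 95% interval 0.10 to 0.98, adjusted p = 0.128).

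Mcm6, a subunit of the replicative helicase, was at 62.6, 70.7 and 50.6 CPM in the vehicle libraries, 61.7, 44.0 and 36.2 in the BPA libraries and 30.1, 37.1 and 36.2 in the Mix libraries. All Mix libraries lay below all vehicle libraries, and BPA spanned both. Its mean fell from 61.3 ± 10.1 to 34.5 ± 3.81 CPM (difference -0.83, SE 0.20, 95% interval -1.27 to -0.39, adjusted p = 0.0259). Tyms was at 7.69, 13.3 and 10.4 CPM in the vehicle libraries, 8.24, 4.33 and 5.02 in the BPA libraries and 3.25, 4.22 and 3.35 in the Mix libraries, with Mix below vehicle without overlap. Its mean fell from 10.5 ± 2.78 to 3.61 ± 0.537 CPM (difference -1.53, SE 0.39, 95% interval -2.36 to -0.69, adjusted p = 0.0285). Ccnd2, the D-type cyclin of proliferating granulosa cells, was at 75.1, 73.1 and 57.8 CPM in the vehicle libraries, 72.6, 85.9 and 68.2 in the BPA libraries and 42.8, 51.8 and 42.0 in the Mix libraries. Mix was below both other groups without overlap (Mix minus vehicle -0.59, SE 0.16, 95% interval -0.93 to -0.25, adjusted p = 0.0367).

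The count of members called under Mix depended on the libraries included. It was 0 without vehicle replicate 2, Mix replicate 1 or Mix replicate 3, 1 (Tyms) without vehicle replicate 1 and 2 (Ccnd2 and Mcm6) without vehicle replicate 3. Mix replicate 2 stood apart: the summed member level was 1279, 1248 and 1219 CPM in vehicle, 1351, 1499.5 and 1255 in BPA and 860.0, 1372 and 946 in Mix. Without it 10 of 39 members passed where 10.5% of rows did, all 10 lower: Birc5, Ccna2, Ccnd2, Cdc20, Cdt1, Kif11, Mcm4, Mcm6, Rrm2 and Tyms. The median member difference of Mix from vehicle was -0.35 with it and -0.65 without it.

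**Figure D3:**
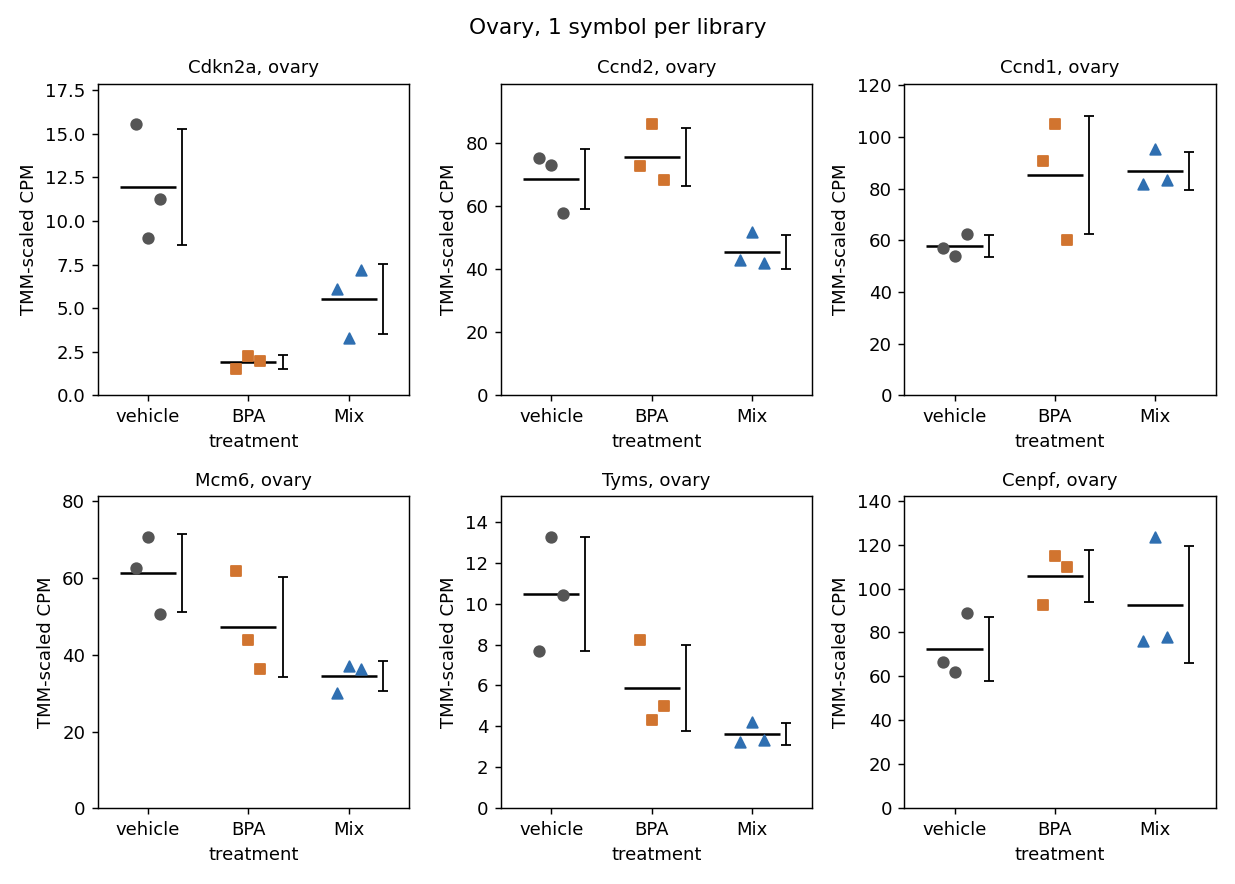
CPM of Cdkn2a, Ccnd2, Ccnd1, Mcm6, Tyms and Cenpf in the 9 ovary libraries, with 1 symbol per library, a line at the group mean and a bar of 1 SD (n = 3). Cdkn2a is lowest under BPA, while Ccnd2, Mcm6 and Tyms are below vehicle in all Mix libraries.

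By value, the roles separated under BPA in the ovary. Against vehicle, 9 of 9 mitotic entry genes (median 0.32) and 9 of 9 kinetochore and spindle genes (median 0.36) were higher, while 2 of 9 licensing genes (median -0.17) and 0 of 3 deoxynucleotide genes (median -0.49) were. Under Mix the signs were mostly negative in every role outside the G1 group: 0 of 9 licensing genes were higher (median -0.59), 0 of 3 deoxynucleotide genes (-0.97), 0 of 4 checkpoint genes (-0.41), 3 of 9 mitotic entry genes (-0.28) and 3 of 9 kinetochore and spindle genes (-0.14). Without Mix replicate 1 the last 2 medians were 0.05 and 0.06, and without Mix replicate 2 they were -0.41 and -0.45. The licensing and deoxynucleotide genes were lower by value under Mix in every fit, and RLE scaling left each of these role counts as it was. Over all members the median was 0.14 for BPA and -0.35 for Mix, beside medians near 0 for all rows.

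**Figure D4:**
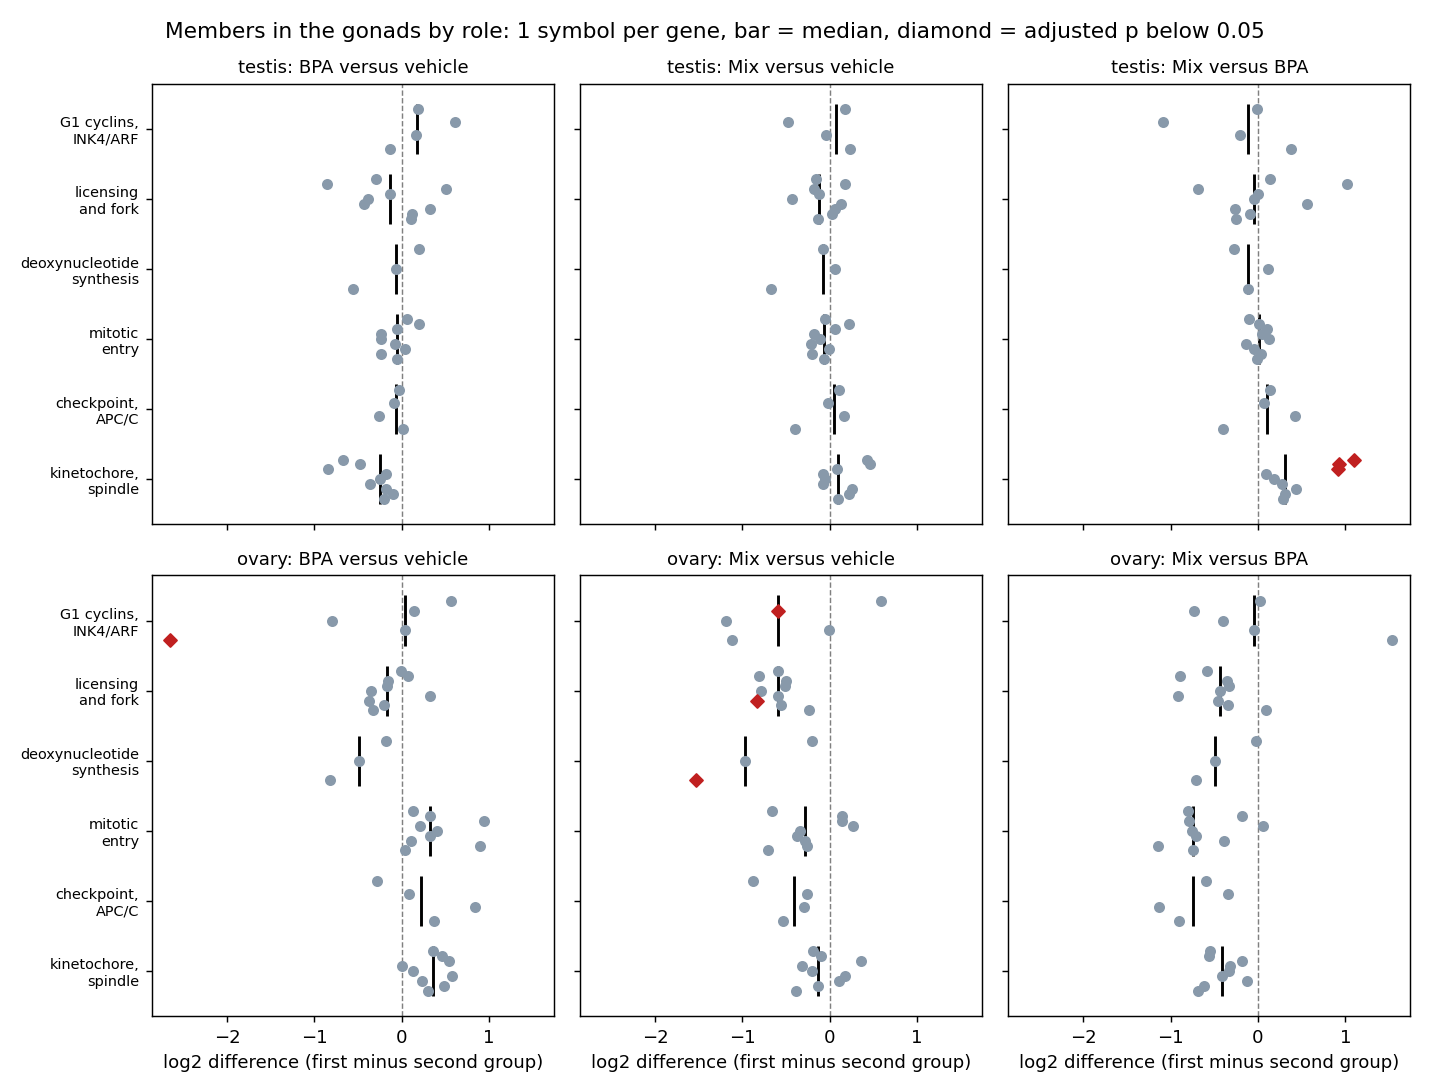
Log2 differences of the members in testis (upper row) and ovary (lower row) for BPA minus vehicle, Mix minus vehicle and Mix minus BPA, grouped by role. Grey points are genes, black bars role medians, and red diamonds genes with an adjusted p below 0.05. Under BPA the medians of the 2 mitotic roles are above 0 in ovary and below 0 in testis. Not every mitotic entry gene lies below 0 in testis.

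Between the treated groups of the ovary, 0 of 39 members passed in edgeR, 14 had an unadjusted p below 0.05 (12% of all rows did) and DESeq2 called 2, Ccnd2 and Cdkn2a. Of all rows, 0.212% were called, 0.0644% higher and 0.147% lower. The Mix minus BPA median was -0.46, and 35 of 39 members were negative; 9 were lower and 1 higher in Mix without overlap, where 8.72% and 10.1% of all rows were. Ccnd2 gave -0.73 (95% interval -1.07 to -0.39, adjusted p = 0.0807). Prc1, at 64.7, 86.0 and 61.2 CPM in BPA and 29.7, 56.6 and 45.5 in Mix, gave -0.68 (adjusted p = 0.237). Without Mix replicate 2 the median was -0.76. Top2a and Mki67, which separated the treated testes, were at 42.3, 92.4 and 59.1 and 33.0, 55.1 and 30.5 CPM in the Mix ovaries, and in both the high library was replicate 2. The 3 members with the highest vehicle means were Aurka (101, 74.9 and 78.2 CPM in the vehicle libraries, 97.1, 100.2 and 75.6 in the BPA libraries and 75.4, 55.8 and 77.9 in the Mix libraries), Pcna (76.8 ± 7.15 CPM in vehicle) and Mcm7 (73.0 ± 20.7 CPM in vehicle), and none of them passed.

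Genes around these members in the same pathways gave further calls in the ovary. Under BPA the CDK inhibitor Cdkn1a (p21) was at 242, 231 and 321 CPM in the vehicle libraries, 151, 74.8 and 93.7 in the BPA libraries and 220.4, 130.2 and 274 in the Mix libraries, and it fell against vehicle (-1.31, adjusted p = 0.0192). It was 1 of 5 CDK inhibitors tested, of which 0 were higher by value. Of 8 p53 target and quiescence genes, 0 were higher by value and 2 fell, Phlda3 (-1.32, adjusted p = 0.00445) and Tob1 (-0.77, adjusted p = 0.0203). Of 29 other replication genes 4 were higher by value (median -0.38). Of 36 other mitotic genes 28 were higher by value (median 0.25), and the single one to pass, Kif22, was lower (-0.92, adjusted p = 0.0357).

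Under Mix 3 of 29 other replication genes fell, the clamp loader subunit Rfc4, the flap endonuclease Fen1 and the ligase Lig1. Rfc4 was at 28.5, 35.5 and 23.8 CPM in the vehicle libraries, 12.5, 20.1 and 19.0 in the BPA libraries and 9.74, 12.8 and 12.9 in the Mix libraries, with both treated groups below vehicle (Mix minus vehicle -1.31, adjusted p = 0.00916). Fen1 gave -0.79 (adjusted p = 0.0382) and Lig1 -0.58 (adjusted p = 0.0435). The CDK inhibitor Cdkn1b (p27), at 112.8, 126.3 and 118 CPM in the vehicle libraries, 111.5, 112.2 and 119.9 in the BPA libraries and 213, 177 and 181 in the Mix libraries, rose under Mix (0.68, adjusted p = 0.00909), and it was also higher in Mix than in BPA (0.73, adjusted p = 0.0393). No other mitotic gene of 36 passed under Mix in edgeR (median -0.29).

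Cell type markers were read in the same libraries, and granulosa sums lay above vehicle in BPA but overlapped vehicle in Mix. Granulosa markers (7 genes, led by Inha and Inhba) summed to 1303 to 1891 CPM in vehicle, 2069 to 3311 in BPA and 1393 to 1852 in Mix, and 4 of 7 rose under BPA: Amh, Fshr, Cyp19a1 and Inhba. Amh, the hormone of small growing follicles, was at 14.8, 13.4 and 12.2 CPM in the vehicle libraries, 41.8, 34.1 and 37.1 in the BPA libraries and 15.2, 12.3 and 16.8 in the Mix libraries (BPA minus vehicle 1.48, adjusted p = 0.00172). Corpus luteum markers (4 genes, led by Star and Prlr) summed to 1600.4 to 1988 CPM in vehicle, 1012 to 1267 in BPA and 1927 to 2777 in Mix. Macrophage markers (8 genes) summed to 351 to 432, 184 to 289 and 224 to 363 CPM in the same order, and C1qa and C1qc fell under BPA. Spermatid markers reached 741 CPM in 1 vehicle ovary library and 62.3 CPM at most in treated ones. Scaled by its Tnp1, a testis profile would account for 14.9, 35.3 and 0.0328 CPM of the member sums of the 3 vehicle ovaries. The part of follicle, luteal and macrophage content and of cycle stage in the member differences was not tested.

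Testis and ovary differed in their response of 2 members to BPA, by an interaction term over all libraries of both gonads that was added after the data were seen. Cenpf gave an ovary minus testis difference of 1.41 on the log2 scale (adjusted p = 0.0151) and Mki67 one of 1.06 (adjusted p = 0.0426). Of all rows 7.85% were called, so 2 calls among 39 members tested are near or below that background. Both genes were lower by value under BPA in testis and higher by value in ovary. Cenpf was called in 18 of 18 fits that left out 1 library (adjusted p up to 0.0426) and Mki67 in 3 of 18 (up to 0.142), and the replicate block and RLE scaling kept Cenpf alone. For Mix against vehicle 0 of 39 members differed (2 at an unadjusted p below 0.05; 2.12% of rows called), and for Mix against BPA 0 of 39 did (10 at an unadjusted p below 0.05; 0.0322% of rows called).

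In male liver no member passed in edgeR, and most values were lower under both treatments. Of 28 members tested, 8 were higher by value and 20 lower under BPA (median -0.34), and 7 and 21 under Mix (median -0.41), beside medians near 0 for all rows. Unadjusted p-values below 0.05 were found for 4 members under BPA and 6 under Mix, where 7.58% and 6.71% of all rows had one. The edgeR test called 0.228% of 9669 rows under BPA (0.0517% higher) and 0.321% under Mix. Libraries were lower without overlap for 5 members under BPA and 8 under Mix, where 7.46% and 6.15% of all rows were. They were higher without overlap for 0 and 1 members, where 6.42% and 5.77% of rows were.

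Ccnd1, the most abundant member in liver, was at 168, 79.1 and 135 CPM in the vehicle libraries, 50.6, 55.0 and 52.7 in the BPA libraries and 111.05, 52.9 and 47.1 in the Mix libraries. All BPA libraries and Mix replicates 2 and 3 lay below every vehicle library. Its mean was 127.2 ± 44.8 CPM in vehicle and 52.7 ± 2.21 in BPA (SD, n = 3; difference -1.27, SE 0.32, 95% interval -1.95 to -0.59, adjusted p = 0.223). DESeq2 and the fit with no low-count filter called it, and so did edgeR without Mix replicate 1 (adjusted p = 0.0378). Under Mix the difference was -0.85 (adjusted p = 0.568).

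The other members with the smallest p-values were at a few CPM. Mcm6 was at 4.61, 5.42 and 5.19 CPM in the vehicle libraries, 1.77, 2.07 and 2.61 in the BPA libraries and 4.21, 1.58 and 1.31 in the Mix libraries, with every BPA library below vehicle (adjusted p = 0.566). Mcm4 was at 3.61, 4.64 and 5.19 CPM in the vehicle libraries, 1.39, 1.95 and 3.05 in the BPA libraries and 1.37, 2.11 and 1.81 in the Mix libraries, where all treated libraries were below vehicle (BPA adjusted p = 0.611; Mix adjusted p = 0.473). Top2a was at 2.44, 4.32 and 6.75 CPM in the vehicle libraries, 2.15, 2.32 and 1.31 in the BPA libraries and 0.911, 0.792 and 1.81 in the Mix libraries, with all Mix libraries below vehicle (difference -1.90, 95% interval -3.06 to -0.74, adjusted p = 0.274). Kinetochore and spindle genes had 1 of 8 higher by value under each treatment, with medians of -0.34 and -0.71. Summed member levels were 282 ± 38.8 CPM in vehicle, 191 ± 12.4 in BPA and 206 ± 33.0 in Mix (SD, n = 3). Aurka (43.4 ± 6.59 CPM in vehicle) and Pcna (17.5 ± 1.23 CPM) followed Ccnd1 in level, and their groups overlapped.

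Mix against BPA in male liver gave 0 calls in edgeR and DESeq2 among 28 members, with 1 at an unadjusted p below 0.05 and 0.0103% of rows called. The smallest p-values were those of Cdt1 (0.633, 1.10 and 0.13 CPM in the vehicle libraries, 0, 0.122 and 0.29 in the BPA libraries and 1.82, 0.528 and 1.21 in the Mix libraries), Ccne1 and Plk1, at adjusted p of 0.672, 0.843 and 0.851. Ccne1 was at 2.15, 0.366 and 1.16 CPM in BPA and 0.797, 0.264 and 0 in Mix, and Plk1 at 2.03, 0.122 and 0.58 and 0, 0.264 and 0.403. At these counts the groups could not be separated. Of the related genes, the CDK inhibitor Cdkn1a was at 125, 125 and 64.5 CPM in the vehicle libraries, 32.3, 25.4 and 64.7 in the BPA libraries and 18.3, 17.3 and 21.4 in the Mix libraries, and it fell under Mix (-2.46, adjusted p = 0.00431). The macrophage receptor Marco was at 77.5, 56.0 and 77.7 CPM in the vehicle libraries, 18.8, 18.5 and 15.2 in the BPA libraries and 47.0, 31.7 and 22.4 in the Mix libraries and fell under BPA (adjusted p = 0.00462); macrophage markers (8 genes, led by C1qb and C1qc) summed to 416 to 478 CPM in vehicle, 308 to 404 in BPA and 289 to 416 in Mix. The part of these cells in the Ccnd1 difference was not tested.

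**Figure D5:**
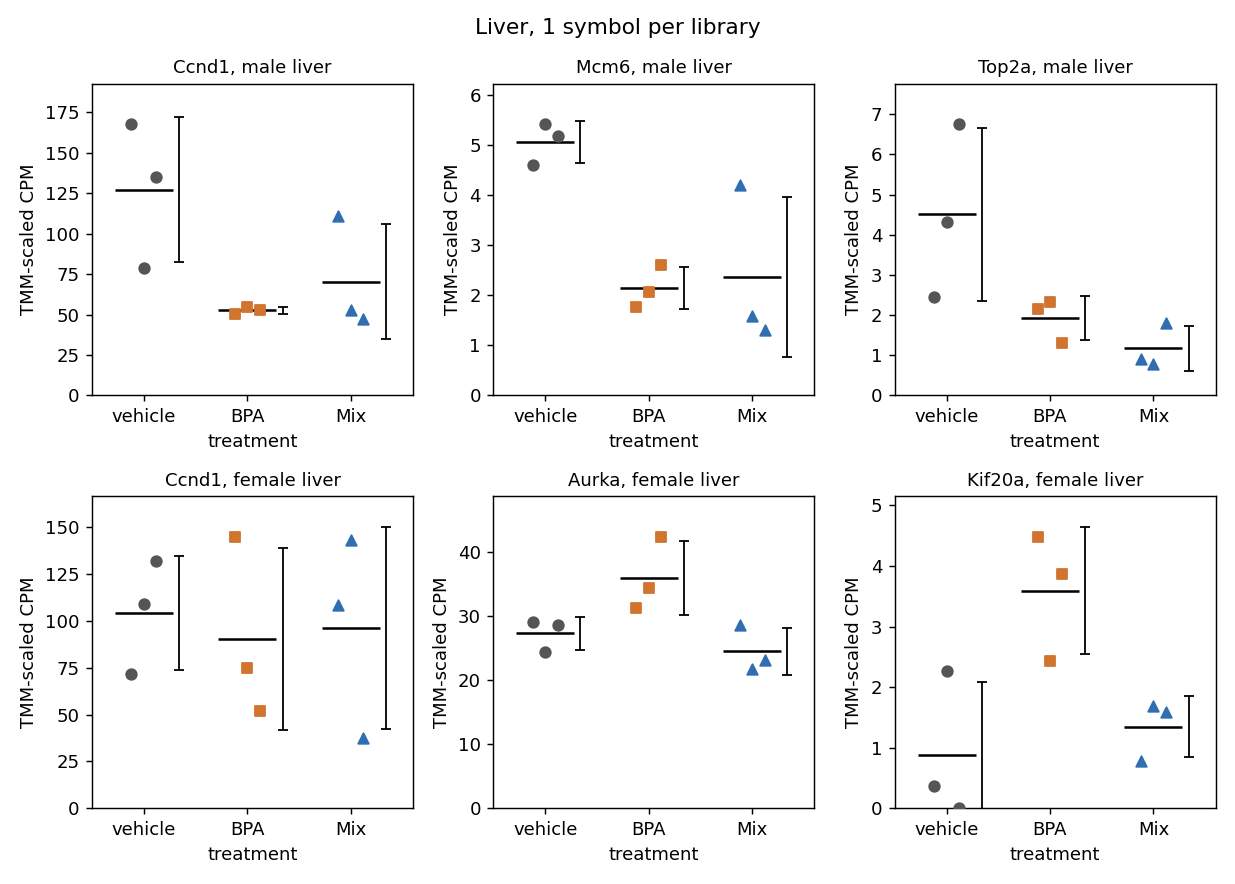
CPM of Ccnd1, Mcm6 and Top2a in male liver (upper row) and of Ccnd1, Aurka and Kif20a in female liver (lower row), with 1 symbol per library, a line at the group mean and a bar of 1 SD (n = 3). Male Ccnd1 is near 50 CPM in all BPA libraries, and female Ccnd1 overlaps between all groups; bars are cut at 0.

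In female liver 0 of 23 members passed in any comparison in edgeR or DESeq2. The numbers with an unadjusted p below 0.05 were 1 under BPA, 0 under Mix and 1 between treatments, where 11.4%, 6.62% and 6.5% of all rows had one; 0.419%, 0.0523% and 0% of rows were called. Ccnd1 was at 71.9, 109 and 132 CPM in the vehicle libraries, 145, 74.7 and 51.8 in the BPA libraries and 109, 143 and 37.3 in the Mix libraries, with all groups overlapping. The cytokinesis motor Kif20a was at 0.362, 2.26 and 0 CPM in the vehicle libraries, 4.48, 2.43 and 3.87 in the BPA libraries and 0.775, 1.68 and 1.58 in the Mix libraries, so that every BPA library exceeded every other library (BPA minus vehicle 2.05, adjusted p = 0.394). Plk1 was at 0.725, 0 and 0 CPM in the vehicle libraries, 1.599, 1.27 and 0.928 in the BPA libraries and 1.22, 1.43 and 0.609 in the Mix libraries (BPA adjusted p = 0.443), at or below 2 CPM throughout. Aurka was at 29.1, 24.4 and 28.6 CPM in the vehicle libraries, 31.2, 34.4 and 42.4 in the BPA libraries and 28.7, 21.8 and 23.1 in the Mix libraries, highest in BPA without overlap (BPA minus vehicle 0.39, adjusted p = 0.503; Mix minus BPA -0.55, adjusted p = 0.688). The 4 members apart and higher under BPA compare with 7.65% of all rows, and the 3 lower in Mix than in BPA with 5.7%. Under Mix the smallest p-values were those of Mcm7 (0.48, adjusted p = 0.815), Plk1 (adjusted p = 0.796) and Nusap1 (adjusted p = 0.908). Between treatments they were those of Aurka, Kif20a (adjusted p = 0.83) and Ccne2 (adjusted p = 0.848). The response of male and female liver was compared by an interaction term in 31 members, and 0 differed for BPA (3 at an unadjusted p below 0.05; 0.209% of rows called) and 0 for Mix (2; 0.189% of rows).

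In kidney no member passed for BPA or Mix against vehicle in either sex by edgeR or DESeq2. In males 32 members were tested, with 2 at an unadjusted p below 0.05 under BPA and 0 under Mix (21% and 9.2% of all rows; 0.136% and 0.0273% called). Plk1 had the smallest p-value under BPA and was at 4.22, 3.52 and 4.88 CPM in the vehicle libraries, 1.55, 1.97 and 1.21 in the BPA libraries and 3.38, 6.52 and 5.97 in the Mix libraries. BPA lay below both other groups without overlap (BPA minus vehicle -1.397, adjusted p = 0.129; Mix minus BPA 1.74, adjusted p = 0.0734). The Mix minus BPA difference of Plk1 was called by DESeq2 (adjusted p = 0.0156) and by edgeR without Mix replicate 1 (adjusted p = 0.0322), in a comparison in which 2.93% of rows were called and 0 of 32 members. In that comparison Tnp1 was at 182, 31.8 and 40.2 CPM in BPA and 1515, 695 and 853 in Mix (difference 3.596, adjusted p = 0.0119), and of the other mitotic genes Cdca3 was called higher in Mix (adjusted p = 0.032). The part of germ cell RNA in the Plk1 difference was not tested. Tpx2 had the smallest p under Mix (5.56, 6.09 and 7.27 CPM in the vehicle libraries, 4.64, 7.05 and 6.47 in the BPA libraries and 13.9, 8.62 and 8.004 in the Mix libraries; adjusted p = 0.561).

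In female kidney 25 members were tested (2 libraries each for vehicle and BPA, 3 for Mix), and 0% of rows were called in any comparison. Unadjusted p-values below 0.05 were found for 2 members under BPA, 1 under Mix and 1 between treatments (16.4%, 10.4% and 7.29% of rows). Aurka had the smallest p under BPA, at 11.7 and 12.7 CPM in the vehicle libraries, 20.9 and 22.8 in the BPA libraries and 17.0, 14.6 and 17.6 in the Mix libraries, with BPA above all others (0.83, adjusted p = 0.189). Ccne2, cyclin E2, had it under Mix (18.0 and 20.8 CPM in the vehicle libraries, 14.2 and 12.1 in the BPA libraries and 9.97, 13.6 and 14.4 in the Mix libraries; -0.62, adjusted p = 0.472). Ccnd2 had it between treatments (8.50 and 6.36 CPM in the vehicle libraries, 1.58 and 3.13 in the BPA libraries and 6.04, 5.81 and 4.85 in the Mix libraries; Mix minus BPA 1.25, adjusted p = 0.683). Without vehicle replicate 1, Kif11 was called under BPA, where 7.15% of rows were called and the vehicle group was 1 library, whose spread is assumed to be that of the other groups; it was at 61.9 and 23.6 CPM in the 2 vehicle libraries. The most abundant members of male kidney under vehicle were Ccnd1 (272 ± 24.9 CPM), Kif11 (73.8 ± 5.38) and Pcna (42.3 ± 1.76), and Ccnd1 led in females as well (156 and 192 CPM).

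The kidney response to BPA differed between the sexes in 2 of 34 members tested by an interaction term, where 4.73% of all rows were called. The member count is thus near that background. Ccnd2 was at 3.09, 2.23 and 4.05 CPM in male vehicle and 6.62, 4.75 and 5.26 in male BPA libraries, and it was lower under BPA in females (values above). Its female minus male difference was -2.48 on the log2 scale (adjusted p = 0.0423). Aurka was at 18.7, 12.9 and 12.8 CPM in male vehicle and 10.8, 9.998 and 10.3 in male BPA libraries and higher under BPA in females, a difference of 1.35 (adjusted p = 0.0418). Neither gene passed within 1 sex. Ribosomal RNA rows took 1.69% to 3.47% of counts in male vehicle libraries and 16.3% to 37.1% in male BPA libraries. In females they took 37.0% and 19.0% in vehicle and 17.1% and 20.7% in BPA libraries. The part of this split in the 2 differences was not tested. No member was called with no low-count filter, with the replicate block, or in 11 of 16 fits that left out 1 library. The same 2 genes were called without any 1 of the male Mix libraries, Aurka alone without female Mix replicate 2, and Cdc20 and Kif11 in their place without female vehicle replicate 1, a fit with 1 female vehicle library and 9.06% of rows called. For Mix 0 of 34 members differed (1 at an unadjusted p below 0.05; 0.00858% of rows called).

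In male thyroid no member passed in edgeR. BPA replicate 1 carried the testis transcripts described above: its members summed to 1604 CPM, against 718 and 717 in the other BPA libraries, and a testis profile scaled to its Tnp1 would hold 704 CPM of these. Plk1, with the smallest p under BPA, was at 6.86, 5.96 and 6.25 CPM in the vehicle libraries, 129.6, 4.50 and 10.8 in the BPA libraries and 4.46, 3.01 and 2.67 in the Mix libraries. The BPA minus vehicle difference of Plk1 was 2.93 (adjusted p = 0.586) with that library and 0.26 without it, and the median member difference was 0.69 with it and -0.24 without it. Between treatments the median was -0.88 with it and 0.18 without it, so both medians changed sign. Of 37 members 3, 1 and 10 had an unadjusted p below 0.05 under BPA, under Mix and between treatments (8.23%, 4.96% and 13.8% of rows), and 0% of rows were called in each. DESeq2 called 3 members between treatments, Ccnb2, Plk1 and Prc1, all with that library included. Rrm1, the large subunit of ribonucleotide reductase, had the smallest p under Mix (48.1, 39.1 and 36.8 CPM in the vehicle libraries, 29.7, 18.7 and 27.2 in the BPA libraries and 19.3, 33.2 and 26.2 in the Mix libraries; -0.66, adjusted p = 0.922).

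In female thyroid 0 of 36 members passed in edgeR, and 4, 4 and 2 had an unadjusted p below 0.05 under BPA, under Mix and between treatments (13.3%, 23% and 5.84% of rows); 0%, 0.00899% and 0% of rows were called. Ccnd2 had the smallest p under Mix and was at 10.6, 5.47 and 6.44 CPM in the vehicle libraries, 26.002, 7.47 and 14.5 in the BPA libraries and 22.9, 31.1 and 35.7 in the Mix libraries. All Mix libraries exceeded vehicle (1.99, 95% interval 0.90 to 3.07, adjusted p = 0.0733). DESeq2 called it, and Tpx2 with it. Without vehicle replicate 1, the library with the most Tnp1 and Alb, edgeR called 5 members under Mix (Ccnd2, Cenpf, Kif23, Mcm2 and Top2a) where 18.4% of all rows were called, and Mcm2 under BPA where 9.82% were. Without vehicle replicate 2, which also held Tnp1, 0 members and 0% of rows were called under either treatment. Ribosomal RNA rows took 3.25%, 0.977% and 0.657% of counts in the vehicle libraries, 7.39%, 1.93% and 5.31% in BPA and 11.7%, 16.4% and 23.7% in Mix. The part of this share in the differences from vehicle was not tested. Kif23, a motor of the central spindle, had the smallest p under BPA; it was at 0 counts in all 3 vehicle libraries and at 0.825, 1.83 and 0.799 CPM in BPA and 1.94, 0.801 and 3.09 in Mix. Rrm1 had the smallest p between treatments (24.9, 22.5 and 20.3 CPM in BPA and 38.7, 31.5 and 41.7 in Mix, adjusted p = 0.829). The most abundant members under vehicle were Ccnd1 (339 ± 61.3 CPM in males, 233 ± 48.5 in females), Tpx2 (113.3 ± 23.01 and 83.3 ± 16.3) and Pcna (70.6 ± 10.95 and 53.3 ± 3.52; SD, n = 3). Of the 38 members tested for a difference between the sexes, 0 were called for BPA or Mix (7 and 4 at an unadjusted p below 0.05), where 0% of rows were called in both.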

How the data were processed

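Total RNA was taken from the organs with TRIzol and sequenced as QuantSeq 3′ libraries, per the labels' protocols. The submitters' processing notes name the tools FastQC, Bowtie2, bedtools and edgeR, without versions, and the genome build rn6. The table deposited by the authors holds whole-number counts per gene. How multiply mapped reads, overlapping genes and strand were handled is not given in the sources used here.

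Each organ and sex was fitted with edgeR 4.0.16 in R 4.3.3: filterByExpr, TMM scaling, 3 treatment groups and a quasi-likelihood test, with Benjamini-Hochberg adjustment over all rows tested and a threshold of 0.05. Standard errors are the log2 difference over the square root of F, and 95% intervals use its t quantile. Intervals carry no multiplicity adjustment. Organ comparisons used all vehicle libraries of a sex with the rat as a block, and sex or gonad differences were interaction terms. Lists are described by counts and medians. The alternatives were DESeq2 1.42.0, RLE scaling, no low-count filter (1 count in any library), a replicate block and leaving out each library. The scripts were tested on simulated counts.

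Values in every library are given for members that passed, otherwise for the 3 (testis, ovary, liver) or 1 (kidney, thyroid) with the smallest p, and for the most abundant members under vehicle. Per related list at most 4 genes that passed are named, and per marker list the 2 with the most counts. The result of a single related gene is not reported here. Amh, Marco, and Top2a and Mki67 in the Mix ovaries, were picked after their values were seen. The members, lists and rules were chosen with earlier results of these data known. Whether replicate numbers pair rats was checked by correlating deviations from group means: same-numbered libraries gave r from -0.352 to 0.253, so the numbers were not taken to pair them. No 2 libraries of a group were near duplicates.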

Additional observations from a re-analysis of the deposited data

Results flagged for a closer look

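4 member results differed between groups under the same contrast. In the kidney response to BPA, the female minus male difference was -2.48 on the log2 scale for Ccnd2 (adjusted p = 0.0423) and 1.35 for Aurka (adjusted p = 0.0418). In the response to BPA of the gonads, the ovary minus testis difference was 1.06 for Mki67 (adjusted p = 0.0426) and 1.41 for Cenpf (adjusted p = 0.0151). All 4 are edgeR interaction terms adjusted over all rows, and the gonad contrast was added after seeing the data. The kidney count was 2 of 34 members (4.73% of all rows called) and the gonad count 2 of 39 (7.85%). Both counts are near or below the share of all rows. Leaving out 1 library, Ccnd2 was called in 3 of 16 fits, Aurka in 4 of 16, Mki67 in 3 of 18 and Cenpf in 18 of 18. Groups of 3 libraries were not tested for single outlying libraries. The ribosomal RNA shares of the male kidney groups, given above, differed, and their part in the kidney calls was not tested.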

How the results depend on the processing

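No named member reversed its direction in the alternatives run for it. The median over all members changed sign in at least 1 alternative in 12 of 24 treatment comparisons: male thyroid BPA against vehicle and Mix against BPA, given above, and 10 whose first median was between -0.22 and 0.10. Of the alternative values of named members and summed levels, 821 were counted as unchanged. For a member this means the same direction and side of the threshold, and for a summed level a move of less than 1 SD. Of the rest, 97 fell short of the threshold, 15 passed it, and 4 summed levels moved by over 1 SD. Of the alternative counts of members called, 461 were within 1.5 times of the first count and 64 were not. DESeq2 called 2 members in testis BPA against vehicle (0.928% of rows), 2 in ovary Mix against BPA (2.64%), 1 in male liver BPA against vehicle (0.714%), 1 in male kidney Mix against BPA (6.3%), 3 in male thyroid Mix against BPA (0.791%) and 2 in female thyroid Mix against vehicle (12.2%), where edgeR called 0. Without the low-count filter 1 member (Ccnd1) passed in male liver under BPA, and 0 in the kidney sex difference in BPA. RLE scaling moved 1 count by over 1.5 times, that of the gonad difference in BPA, to 1.

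With the replicate number as a block, the counts were 0 for testis Mix against BPA and 0 for the kidney sex difference in BPA, 1 for the gonad difference in BPA, and 4 for ovary Mix against vehicle. Same-numbered libraries correlated over 0.1 in 6 of 9 pairs in male kidney and in 0 of 9 in testis, so the numbers are not shown to pair rats.

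Leaving out 1 library at a time, the counts ranged from 0 to 1 for BPA against vehicle in testis, male liver, female kidney and female thyroid, 0 to 4 for testis Mix against BPA, 1 to 2 for ovary BPA, 0 to 10 for ovary Mix, 0 to 1 for male kidney Mix against BPA, 0 to 5 for female thyroid Mix, 33 to 35 for vehicle testis, 12 to 32 for vehicle ovary, 0 to 2 for the kidney sex difference in BPA, and 0 to 1 for the thyroid sex difference in BPA and in Mix (Mcm2 without female vehicle replicate 1). For the gonad differences, whose alternatives were added after seeing the data, they ranged from 1 to 3 in BPA, 0 to 2 in Mix and 0 to 3 between treatments. The other counts, 0 at first, stayed at 0. The cause of these moves was not tested, but fewer libraries enter each such fit.

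With at most 3 libraries a group, small differences may go undetected. In female liver 21 members had a vehicle mean under 1 CPM, where a few counts decide a value.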

Other observations

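Genes around the members were also compared between vehicle gonads and the mean of liver, kidney and thyroid. In testis 35 of 38 other mitotic genes were called higher and 1 lower (median log2 difference 4.15), and 18 of 27 other replication genes higher and 7 lower (median 1.52), where 41% of all rows were called higher and 39.3% lower. In the same fit, 5 of 8 p53 target and quiescence genes were called lower and 1 higher (median -1.32), and 5 of 9 G1 kinases, other cyclins and Myc genes lower and 2 higher (median -0.81). In ovary 22 of 37 other mitotic genes (median 2.96) and 9 of 29 other replication genes (median 1.89) were called higher and 0 lower, where 12.8% and 11% of rows were. The p53 target and quiescence genes had 2 of 8 higher and 0 lower there (median 0.55). Over all rows the medians were -0.07 in the male and 0.13 in the female fit.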
